A study of Arabidopsis thaliana with 6 samples.

Results

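Transcripts of 5 ATG8 genes, ATG8E (AT2G45170), ATG8H (AT3G06420), APG8A (AT4G21980, also called ATG8A), ATG8B (AT4G04620) and ATG8G (AT3G60640), were followed in Arabidopsis thaliana rosettes. The members were the probe sets to which the platform annotation gives 1 of these 5 names and no other, and the rule found 5 such probe sets, 1 per gene, among 22746 tested. The plants were the pgm mutant in the Col-0 background, which lacks plastidic phosphoglucomutase and so makes almost no starch, and all groups share this mutation. No wild-type array is part of the comparison. Rosettes of 5 to 6 weeks were kept for 4 hours at low CO2 in prolonged darkness, at low CO2 in light, or at normal CO2 in light, with 2 biological replicates per treatment, A and B, on 6 single-colour arrays. Each sample was pooled: the labels give harvests of 4 sets of 3 rosettes and the grinding of 15.

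ATG8 proteins are small ubiquitin-like proteins. The protease ATG4 trims their C-terminus, the ATG7 and ATG3 enzymes pass them on, and a complex of ATG5, ATG12 and ATG16 attaches them to phosphatidylethanolamine in the membrane of the growing autophagosome, where they bind cargo receptors. Plants have a family of ATG8 genes, and in Arabidopsis ATG8H and ATG8I already end in the glycine that the other isoforms expose only after trimming. In leaves, autophagy recycles cytoplasm and chloroplast parts when carbon or nitrogen runs short, and the TOR kinase, with its subunit RAPTOR, holds it back when nutrients suffice.

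The deposited values are linear MAS5 intensities, 1 per probe set. The 6 arrays had medians from 34.6 to 39.55 and the same trimmed mean, 100.01 after removing 2% of the probe sets at each end, so they had been scaled to each other. Replicates A and B of a group correlated across probe sets with r = 0.971 to 0.984. Rosette identity was checked on 15 genes of green leaf, of which 7 had a named probe set. Their summed intensity was 18422.7 to 21053.3 over the 6 arrays, and the root hair gene EXPA7 read 7.8 to 17.8. An intensity is not a count of molecules, and the levels of different probe sets are not set against each other below. Because whole rosettes were used, less RNA per cell and fewer cells that express a gene cannot be told apart.

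All 5 genes read lowest at normal CO2 in light, and 4 of them fell when CO2 was raised in light. ATG8E fell 5.25-fold, ATG8H 4.51-fold, APG8A 2.60-fold and ATG8B 2.56-fold, while ATG8G, at 1.57-fold lower, did not pass the test. Light at low CO2 moved 0 of the 5 past the threshold. A pair of steps is compared: the light step, from darkness to light at low CO2, and the CO2 step, from low to normal CO2 in light. Both share the arrays of low CO2 in light, so they are not independent of each other. Fold changes are on the scale of log2(intensity + 7.3), and p-values are those of limma, adjusted by Benjamini-Hochberg over all 22746 rows and called under 0.05.

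In ATG8E the intensity was 793.1 and 1070.4 on the 2 arrays of darkness, 926.7 and 893.3 in light at low CO2, and 187.6 and 149.3 at normal CO2 in light, in the order A, B. The arrays of normal CO2 lay far below the other 4, and the 2 groups of low CO2 overlapped. The CO2 step was -2.39 ± 0.19 (log2 fold change ± SE, n = 2 per group, limma adjusted p = 0.00485), with -2.26 within replicate A and -2.52 within replicate B. At normal CO2 the mean, 168 ± 27.1 (SD, n = 2), was 18.5% of that at low CO2 in light, 910.0 ± 23.6.

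ATG8H, one of the isoforms without a C-terminal extension, read 215.4 and 413.1 in darkness, 271.5 and 240.9 in light at low CO2, and 56.1 and 46.3 at normal CO2. Its arrays of darkness differed most between replicates, so that darkness held both the highest value and one below those of low CO2 in light. The CO2 step was -2.17 ± 0.30 (n = 2 per group, limma adjusted p = 0.0103), with -2.14 in A and -2.21 in B. The mean intensity was 256 ± 21.6 (SD, n = 2) at low CO2 in light and 51.2 ± 6.93 at normal CO2.

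APG8A had 399.4 and 471.0 in darkness, 456.5 and 391.9 in light at low CO2, and 156.5 and 159.9 at normal CO2. The 2 arrays of normal CO2 nearly coincided, far below the other 4. Its CO2 step was -1.38 ± 0.15 (n = 2 per group, limma adjusted p = 0.00712). ATG8B, from the same branch of the family, had 157.3 and 201.0, 166.1 and 134.4, and 63.4 and 45.8 in the same order of groups. Here too normal CO2 lay below all 4 arrays of low CO2, which overlapped among themselves. The CO2 step was -1.36 ± 0.22 (n = 2 per group, limma adjusted p = 0.0140).

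ATG8G had the smallest change of the 5. It read 60.4 and 67.7 in darkness, 74.4 and 64.4 in light at low CO2, and 49.4 and 34.7 at normal CO2. The groups of low and normal CO2 did not overlap, but the step of -0.65 ± 0.21 (n = 2 per group) had a limma adjusted p = 0.0927. It was -0.53 in A and -0.77 in B. ATG8G passed in 1 of the alternatives, when only probe sets with a group mean of at least 50 were tested (limma adjusted p = 0.0473). It met that filter only through the groups of low CO2, as its mean at normal CO2 was 42.05. In that setting 35.8% of all probe sets kept passed in either direction, against 14.6% in the main fit.

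**Figure D1:**
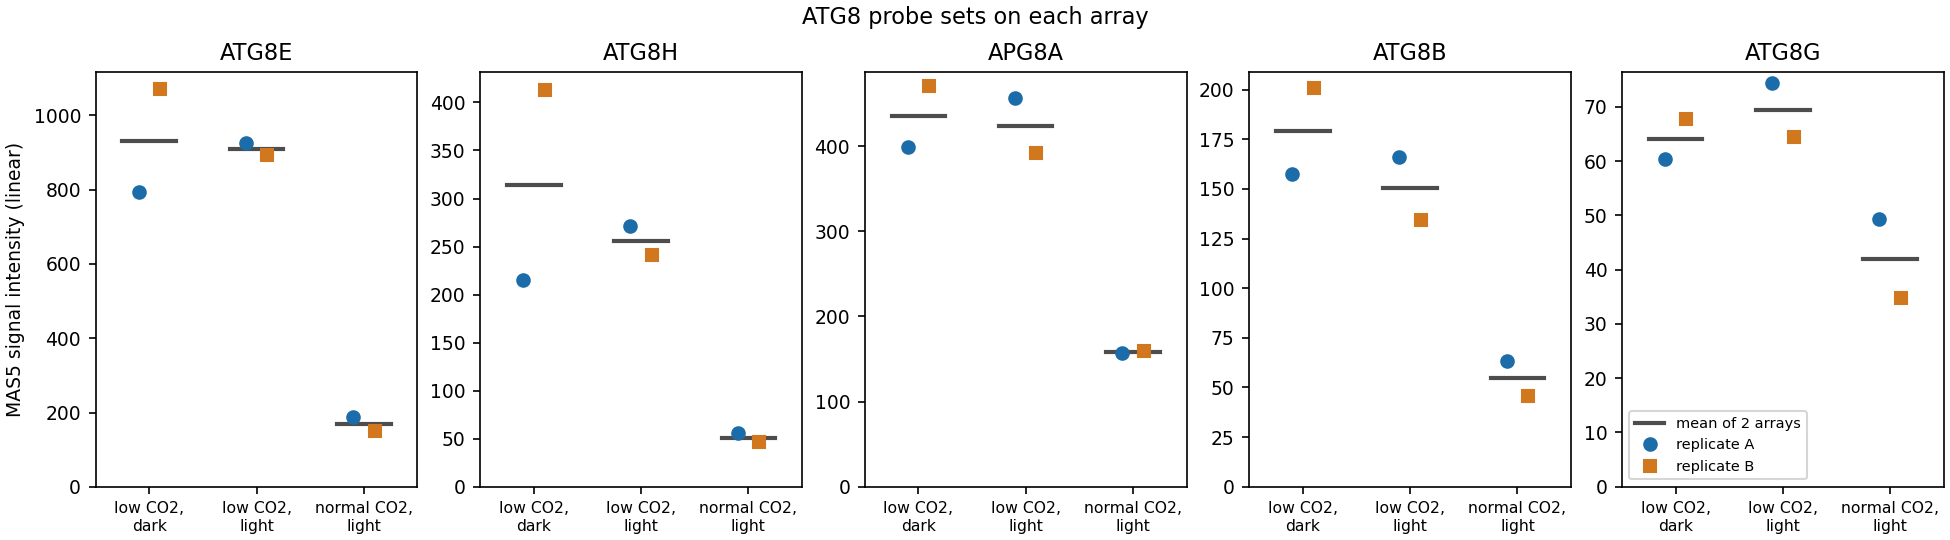
MAS5 signal intensity (linear, from 0) of the 5 ATG8 probe sets on each of the 6 arrays, by treatment; circles are replicate A, squares replicate B and bars the mean of 2 arrays. In each panel both arrays of normal CO2 in light lie below all 4 arrays of low CO2, from 187.6 and 149.3 for ATG8E to 49.4 and 34.7 for ATG8G.

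Of all probe sets 6.2% fell in the CO2 step, against 4 of the 5 members, and 8.4% rose. In counts, 1410 fell and 1911 rose, which became 1742 and 1574 with the arrays shifted to a common median, and the 4 members fell there too. At an unadjusted p under 0.05 it was 5 of 5 members and 29.7% of all probe sets in either direction. Among probe sets with a group mean of at least 50, the share that fell was 11.2%. The median log2 fold change was -1.38 over the 5 members and -0.01 over all probe sets tested. Lower values than that of ATG8E were found in 0.787% of all probe sets, and lower values than those of ATG8H, APG8A, ATG8B and ATG8G in 1.06%, 2.88%, 3.00% and 10.3%. Both arrays of normal CO2 lay below both of low CO2 in light in 5 of 5 members and in 26.6% of all probe sets. They lay below all 4 arrays of low CO2 in 5 of 5 and in 17.2% of all.

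**Figure D2:**
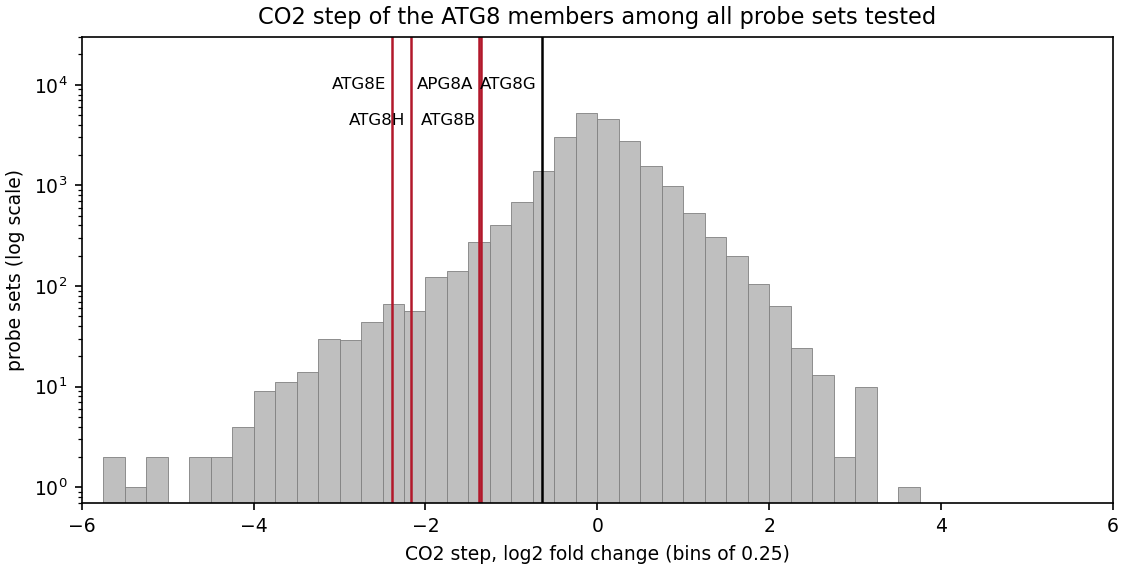
Number of probe sets (log scale) by log2 fold change of the CO2 step, in bins of 0.25, over the 22746 tested; vertical lines mark the ATG8 members, red where the adjusted p was under 0.05 and black for ATG8G. ATG8E, at -2.39, and ATG8H, at -2.17, lie in the lower tail, and ATG8G, at -0.65, lies at its inner edge.

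The calls of the CO2 step rest on both arrays of normal CO2. With either of them left out no member passed in limma. No other probe set passed in these fits in either direction, so the loss of calls is not particular to the members. Without replicate A or B of normal CO2 the step was -2.55 or -2.23 for ATG8E and -1.56 or -1.15 for ATG8B. For ATG8G it ran from -0.87 to -0.43 over the fits that left out 1 array. The array carries a pair of control sets for the ratio of 3 prime to 5 prime signal of each of 3 genes. For ubiquitin the ratios on the arrays of normal CO2, 1.69 and 1.95 in one set and 2.08 and 3.62 in the other, lay above those on the 4 arrays of low CO2, 1.38 to 1.48 and 1.60 to 2.07. The arrays of normal CO2 overlapped with those of low CO2 in one GAPDH set, with 1.57 and 1.94 against 1.51 to 2.11, in one actin set, with 2.16 and 2.60 against 1.97 to 2.84, and in the other, with 5.76 and 9.91 against 3.56 to 7.42. In the other GAPDH set the ratio was 0.949 to 1.13 on all 6. The part of RNA quality in the falls was not tested. Markers of senescing leaf also read lower at normal CO2: 3 of 9 had a named probe set, and their summed intensity was 48.5 to 65.1 at normal CO2 against 128.0 to 211.6 in light at low CO2 and 131.0 to 156.7 in darkness. None was listed at 0, WRKY6 passed the test, and their part in the result was not tested.

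The light step was small in every member. ATG8E had a log2 fold change of -0.02 ± 0.19 (n = 2 per group, limma adjusted p = 0.978), APG8A -0.04 ± 0.15 (0.940) and ATG8G 0.10 ± 0.21 (0.869). ATG8H and ATG8B had -0.22 ± 0.30 (0.793) and -0.24 ± 0.22 (0.655). At an unadjusted p under 0.05, 0 of 5 passed, where 16.5% of all probe sets did. After adjustment 0.193% of all probe sets fell and 0.849% rose. With standard errors of 0.15 to 0.30 on the log2 scale, the data do not show that light had no effect.

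The array of darkness B read above that of darkness A in all 5 genes, and the array of low CO2 in light B below its replicate A in all 5. Whether the letters pair the arrays was not settled, so differences between arrays of one letter are given as a description of the spread. For the light step they were 0.32 (A) and -0.76 (B) for ATG8H, 0.08 and -0.56 for ATG8B, and 0.27 and -0.06 for ATG8G. The order of darkness and low CO2 in light was not settled for any member, whereas both arrays of normal CO2 were lowest in each.

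Over the whole range, from darkness at low CO2 to light at normal CO2, the same 4 members fell. ATG8E had -2.41 ± 0.19 (n = 2 per group, limma adjusted p = 0.00240), ATG8H -2.39 ± 0.30 (0.00512), ATG8B -1.60 ± 0.22 (0.00607) and APG8A -1.41 ± 0.15 (0.00354). ATG8G had -0.55 ± 0.21 (0.125). Of all probe sets 9.13% fell and 11.3% rose in this comparison. Both arrays of normal CO2 were below both of darkness in 5 of 5 members and in 26.5% of all probe sets. Without replicate B of normal CO2, which leaves 1 array in that group, the calls of ATG8H and ATG8B ended, at -2.27 and -1.39. Fewer of all probe sets passed in that fit too.

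The CO2 step made up most of this range in each gene. As a share of the whole log2 change it was 99.2% for ATG8E, 97.5% for APG8A, 90.9% for ATG8H and 84.9% for ATG8B. For ATG8G it was 119%, above the whole because its light step had the opposite sign. Taken between arrays of one letter, the share ran from 71.8% (ATG8B, B) to 206% (ATG8G, A). The genes are not ordered by this share, which was not tested between them.

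The difference between the steps was tested in the same model. The CO2 step was lower than the light step by 2.37 ± 0.33 on the log2 scale in ATG8E (n = 2 per group, limma adjusted p = 0.0428), the single member to pass. APG8A had -1.34 ± 0.25 (0.0565), ATG8H -1.96 ± 0.52 (0.103), ATG8B -1.11 ± 0.37 (0.164) and ATG8G -0.75 ± 0.36 (0.308). Of all probe sets 1.21% passed in this direction. At an unadjusted p under 0.05, 4 of 5 members and 20.8% of all probe sets passed. The call of ATG8E ended with any one of the 6 arrays left out, with values from -2.59 to -2.16. These fits leave 1 array in a group, and fewer of all probe sets passed in each, so the loss is not particular to ATG8E.

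The members differed among themselves in the size of the CO2 step. For each of the 10 pairs the within-array log2 difference was fitted with the 3 treatments, and a 95% interval was taken from its 3 residual degrees of freedom, with no adjustment over the pairs. The interval excluded 0 in 7 pairs. The largest difference was that of ATG8G and ATG8E: the step of ATG8G was 1.74 ± 0.14 (SE) less negative, with an interval from 1.31 to 2.18, and 1.73 and 1.75 within A and B. APG8A and ATG8B were less negative than ATG8E by 1.01 (0.46 to 1.57) and 1.04 (0.68 to 1.39).

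Against ATG8H the difference was 1.52 for ATG8G (0.50 to 2.55) and 0.82 for ATG8B (0.02 to 1.62). ATG8G was less negative than APG8A by 0.73 (0.12 to 1.34) and than ATG8B by 0.71 (0.42 to 0.99). Each of the 4 alternatives that kept all arrays left 6 pairs. The interval of ATG8G and APG8A then included 0 with the replicate block (-0.052 to 1.51) and with a pseudocount of 1 (-0.0076 to 1.38), and that of ATG8B and ATG8H with a pseudocount of 32 (-0.023 to 1.46) and under quantile normalization (-0.0098 to 1.60). The interval included 0 for ATG8H and ATG8E (0.22, from -0.44 to 0.88), for APG8A and ATG8H (0.80, from -0.16 to 1.75) and for ATG8B and APG8A (0.02, from -0.58 to 0.62). By size of step the order was ATG8E, ATG8H, APG8A, ATG8B, ATG8G, and of these neighbours only ATG8B and ATG8G had an interval without 0. Leaving out an array of low CO2 in light lowered the count of pairs to 4 (replicate A) or 3 (replicate B).

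**Figure D3:**
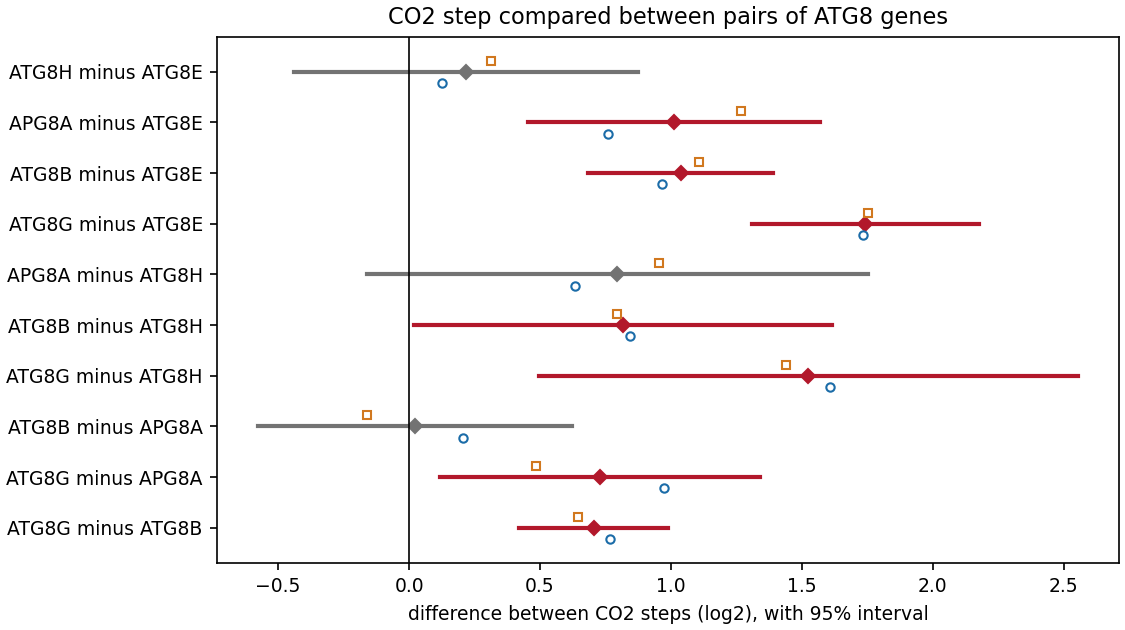
Difference between the CO2 steps of 2 ATG8 genes (log2) for the 10 pairs; diamonds and lines are the estimate with its 95% interval, red where it excludes 0, circles the value within replicate A and squares that within replicate B. The 4 pairs with ATG8G lie wholly above 0, though that with APG8A includes 0 with the replicate block, and the pairs of ATG8H with ATG8E, APG8A with ATG8H and ATG8B with APG8A cross it.

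The other 4 Arabidopsis ATG8 genes also had a named probe set each, and all 4 fell in the CO2 step. ATG8F read 2191.8 and 2191.9 in darkness, 1878.6 and 1842.5 in light at low CO2, and 951.2 and 643.6 at normal CO2. Its step was -1.24 ± 0.20 (n = 2 per group, limma adjusted p = 0.0153). ATG8C had -1.0 ± 0.13 (0.00905), ATG8D -0.91 ± 0.17 (0.0204) and ATG8I, which the annotation calls APG8H, -0.76 ± 0.12 (0.0146). Thus 8 of the 9 family genes fell, with a median of -1.24, where 6.2% of all probe sets fell. In the light step 0 of 9 passed, where 0.193% of all probe sets fell and 0.849% rose, so that 0 of 9 is near the background. In ATG8C, ATG8F and ATG8I both arrays of low CO2 in light were below both of darkness, a pattern of 22.5% of all probe sets, without passing the test. Without replicate B of low CO2 in light the calls of ATG8D, ATG8F and ATG8I in the CO2 step ended, at -0.79, -1.26 and -0.71. Fewer of all probe sets passed in that fit too.

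By estimate, the steps within each branch of the family were not all of one size. ATG8E, ATG8F and ATG8G, which form one branch by sequence, ran from -2.39 over -1.24 to -0.65. ATG8H and ATG8I, the pair without a C-terminal extension, had -2.17 and -0.76. APG8A, ATG8B, ATG8C and ATG8D lay closer together, between -1.38 and -0.91. Of the pairs within a branch, the interval given above excluded 0 for ATG8E and ATG8G and included 0 for APG8A and ATG8B. Differences that involve ATG8C, ATG8D, ATG8F or ATG8I were not tested. The genes are paralogs, and cross-hybridisation between their probe sets was not tested.

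**Figure D4:**
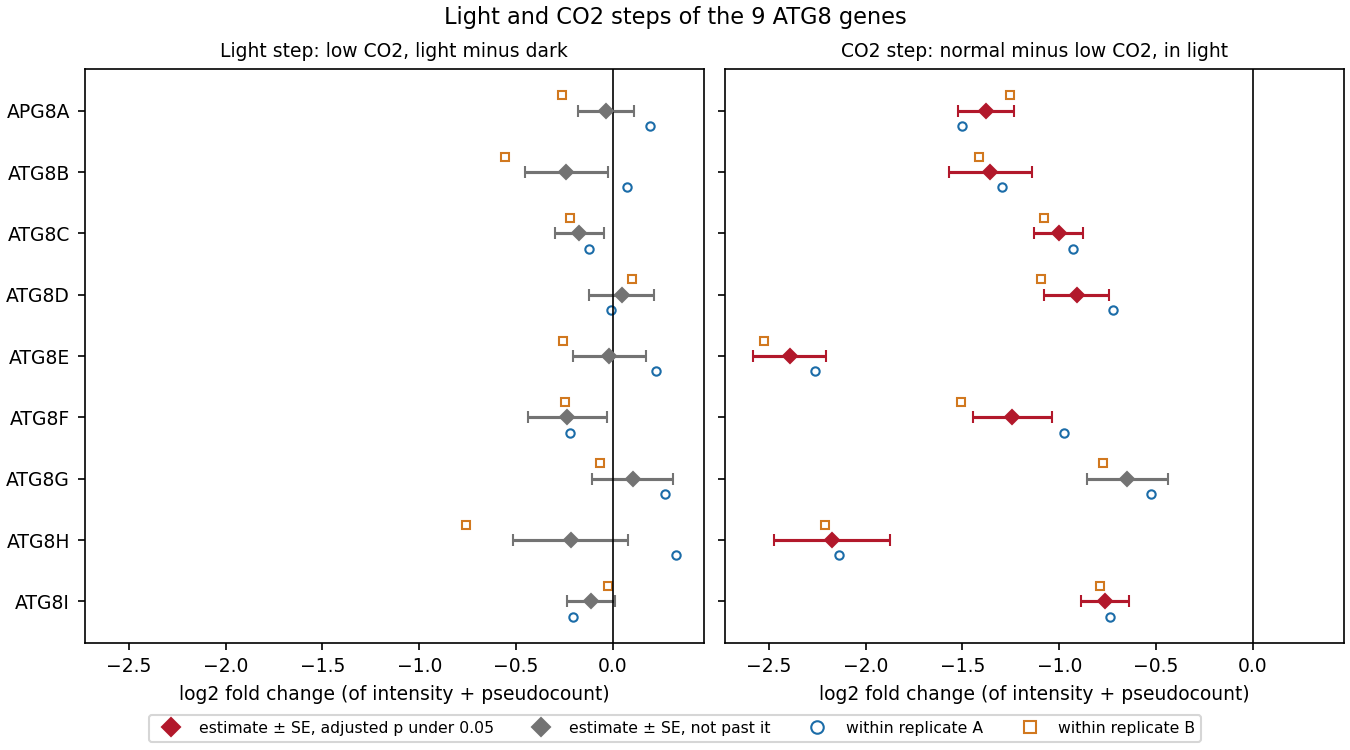
Light step (left) and CO2 step (right) of the 9 ATG8 genes as log2 fold change of intensity + 7.3, on one scale; diamonds with bars are the limma estimate ± SE, red where the adjusted p was under 0.05, circles and squares the values within replicates A and B. The CO2 step is negative in all 9, from -2.39 (ATG8E) to -0.65 (ATG8G), and the light steps lie between -0.24 and 0.10.

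Beyond the ATG8 family, 47 other autophagy genes were listed and 13 had a named probe set, of which 3 fell and 0 rose in the CO2 step. Over all probe sets 6.2% fell and 8.4% rose, and 11.2% fell among those with a group mean of at least 50. The median of the 13 was -0.58. ATG101, a subunit of the ATG1 kinase complex that starts autophagosome formation, read 205.8 and 165.7 in light at low CO2 and 98.0 and 78.0 at normal CO2. Its step was -1.02 ± 0.17 (n = 2 per group, limma adjusted p = 0.0169). ATG3, the enzyme that hands ATG8 to the lipid, had -0.88 ± 0.20 (0.0356), and ATG16 of the conjugating complex had -0.77 ± 0.12 (0.0141). The call of ATG3 ended in the model of the 4 arrays compared (limma adjusted p = 0.0575) and with any single array left out except replicate B of low CO2 in light. That of ATG16 ended without replicate B of low CO2 in light, at -0.73. Fewer of all probe sets passed in each of these fits.

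In ATG16 the groups of darkness and low CO2 in light did not overlap, unlike in the 5 ATG8 members, a difference that was not tested. It read 283.5 and 274.5 in darkness, 179.4 and 190.1 in light at low CO2, and 106.9 and 103.3 at normal CO2, so that no 2 groups overlapped. The same order without overlap was found in ATG8C, ATG8F, ATG8I and ATG4B. Of all probe sets 22.5% had both arrays of low CO2 in light below both of darkness. The light step of ATG16 was -0.58 with a limma adjusted p = 0.0888, short of the threshold. Its whole range was -1.35 ± 0.12 (limma adjusted p = 0.00289, n = 2 per group). ATG4B, the protease that trims ATG8, had a CO2 step of -0.20 (limma adjusted p = 0.474). Its whole range was -0.50 ± 0.16 (limma adjusted p = 0.0716), also short of the threshold.

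Of the 6 measured genes of the ATG1 and ATG13 kinase complex, ATG101 alone passed. The kinase-related ATG1T had -0.62 (limma adjusted p = 0.0524) and passed in 6 of the 10 alternatives that left out no single array. The lowest adjusted p, 0.0242, came with only probe sets of a group mean of at least 50, of which 35.8% passed in either direction. ATG1T met that filter only through the groups of low CO2, as its mean at normal CO2 was 49.95. ATG1A had -0.30 (limma adjusted p = 0.226), ATG1B -0.58 (0.176) and ATG1C 0.11 (0.794). ATG13B read 1.6 to 12.3, so near the 7.3 added that its step of -0.69 (0.165) depends on it. ATG1A was highest on both arrays of low CO2 in light, with 180.0 and 152.8 against 127.9 and 117.1 in darkness and 135.9 and 130.3 at normal CO2. Its light step, 0.42 ± 0.14 (limma adjusted p = 0.224), did not pass either. The share of all probe sets with such a peak was not counted. ATG14A, of the lipid kinase complex, had a CO2 step of -0.78 (0.131) and a whole range of -1.12 ± 0.29 (0.0418). That call ended without any one of the arrays of darkness or of normal CO2, with values of -1.30 to -0.94, in fits where fewer of all probe sets passed too. It also ended with a pseudocount of 32 (limma adjusted p = 0.0527). A second, dimmer probe set of ATG14A had a whole range of 0.06 ± 0.20 (0.880). VPS38 of the same complex had 0.07 (0.838), which was -0.0044 with the arrays shifted to a common median.

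Of the TOR subunits, RAPTOR1 had a CO2 step of -0.08 (limma adjusted p = 0.785) and read 86.3 to 98.6 on all 6 arrays. RAPTOR2 read 25.1 and 23.3 in darkness, 54.5 and 39.1 in light at low CO2, and 67.6 and 53.6 at normal CO2, and its whole range was 1.10 ± 0.23 (limma adjusted p = 0.0199, n = 2 per group). The call ended without any one of the arrays of darkness or of normal CO2, with values of 0.95 to 1.25. Fewer of all probe sets passed in those fits too. Neither of its steps passed (adjusted p = 0.168 for light and 0.390 for CO2). The lists of ATG9, ATG2 and ATG18 proteins and of ATG8-binding receptors had 0 members with a named probe set of 18 genes listed, and are not analysed here.

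**Figure D5:**
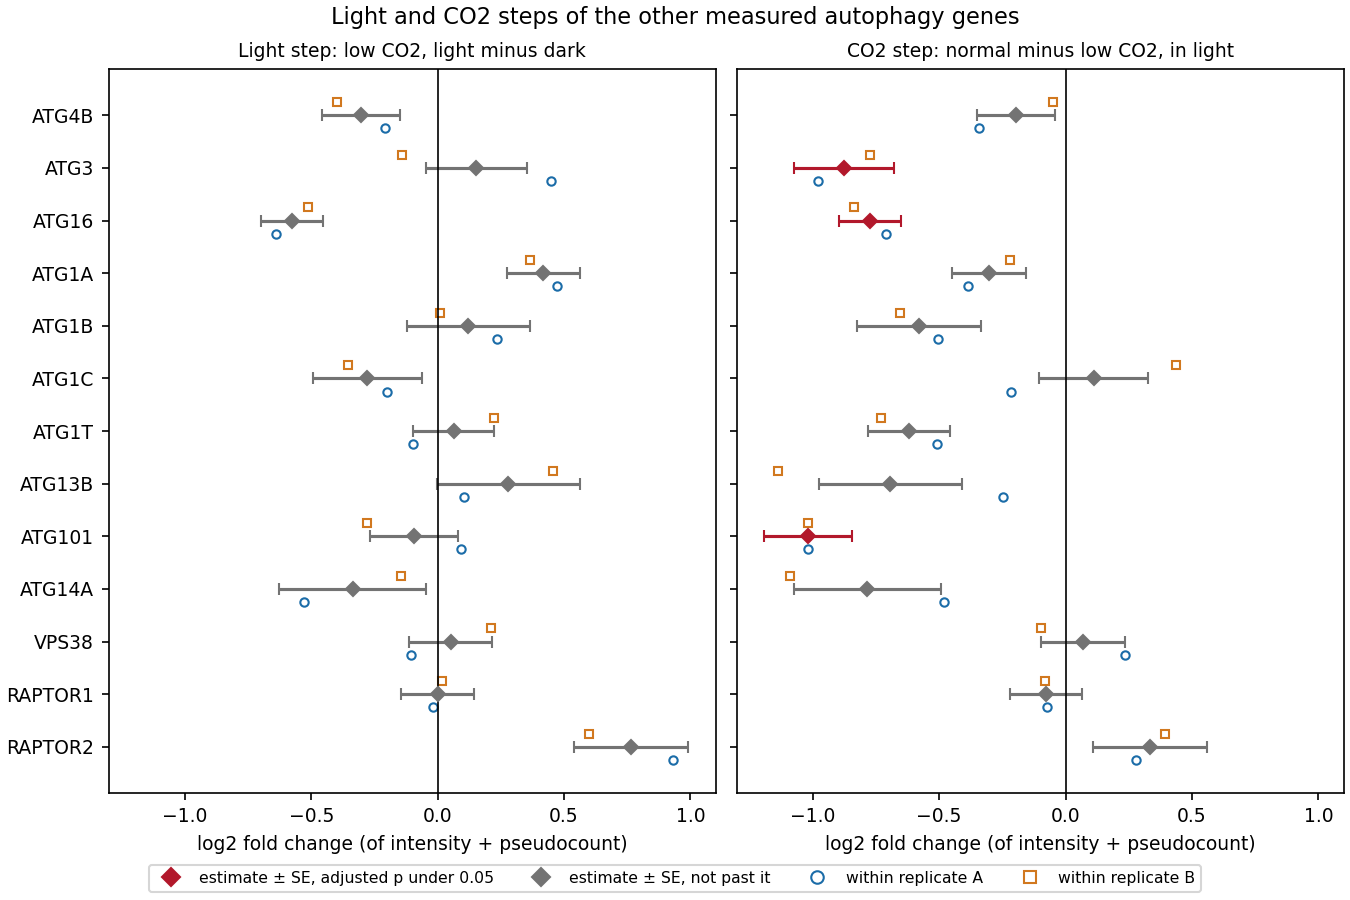
Light step (left) and CO2 step (right) of the 13 measured autophagy genes outside the ATG8 family, as log2 fold change of intensity + 7.3 on one scale; diamonds with bars are the limma estimate ± SE, red where the adjusted p was under 0.05, circles and squares the values within replicates A and B. ATG3, ATG16 and ATG101 fell in the CO2 step, at -0.88, -0.77 and -1.02, and none passed in the light step.

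The genes most like each member over the 6 arrays were sought among 5275 other named probe sets with a mean intensity of at least 50, by the Euclidean distance between log2 values centred on each gene's mean. Nearest to ATG8E were AT1G66760 (distance 0.37), AT1G22930 (0.39) and AT3G26510 (0.45), with Pearson's r of 0.993, 0.990 and 0.991 over 6 arrays. Nearest to ATG8H were AT1G21680 (0.45), AT5G16650 (0.51) and COR47 (0.53), a dehydrin gene. APG8A had the closest match of all: AT4G34180 at 0.13, with a mean intensity of 697.9 in darkness, 671.4 in light at low CO2 and 268.0 at normal CO2. AT3G19910 (0.27) and AT1G02750 (0.27) followed.

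Nearest to ATG8B were VPS20.1 (0.28), which encodes a subunit of the ESCRT-III membrane-remodelling complex, AT1G73480 (0.30) and AT3G21790 (0.32). ATG8G was matched by AT3G06570 (0.16), AT4G10970 (0.18) and AT4G33910 (0.20). Nearest to the mean of the 5 members were AT4G26060 (0.30), AT4G22820 (0.33), the glutathione S-transferase gene GSTU16 (0.35), AT1G32920 (0.37) and AT3G26890 (0.38). All these profiles share the 6 arrays and a lower level at normal CO2.

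Within the family, ATG8E and ATG8H were 0.43 apart and APG8A and ATG8B 0.40, whereas ATG8E and ATG8G were 2.10 apart. APG8A lay 0.44 from ATG8C, and ATG8B 0.35 from ATG8F. The closest ATG8 gene to ATG8G was ATG8D, at 0.51. This distance follows the size of the fall by construction, and no test of branch was made. Within the branch of APG8A the distances ran from 0.37 (ATG8C and ATG8D) to 0.86 (ATG8B and ATG8D). The closest pair of the whole family, ATG8D and ATG8I at 0.28, came from different branches, as do ATG8E and ATG8H. Pearson's r over the 6 arrays between the 5 members was 0.897 to 0.992, values that share the same arrays and the same drop at normal CO2.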

How the data were processed

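The deposited table held 22810 probe sets on 6 arrays as linear intensity values, made by the authors with MAS5, per the submitters' processing notes. No MAS5 version or scaling target is given in the sources used here. Leaving out 64 controls, 22746 probe sets were tested. The platform annotation gave 13513 of these a single symbol, 503 several and 8730 none, and 13436 single symbols were matched by Entrez ID to a locus of TAIR10.1, used for names only. Values were transformed to log2(intensity + 7.3), 7.3 being the 20th percentile. One model of 3 group means on all 6 arrays was fitted by lmFit and contrasts.fit of limma 3.58.1 (R 4.3.3), with moderated variances from eBayes with a mean-variance trend, on 3 residual and 3.27 prior degrees of freedom. It was tested on simulated data. Precision is limited by the small number of arrays.

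The members, lists, named-gene rule and tests were chosen with earlier results of these data known. Named were the 5 members, all other measured genes of 56 autophagy genes listed by locus (22 measured with the members, taking the brightest probe set where a gene had more), and the nearest profiles. Alternatives were other pseudocounts, a filter on dim probe sets, quantile or median scaling, the replicate letter as a block, other variance priors, the 4 arrays compared, and each array left out. The planned test of member pairs subtracted 1 gene from all rows, which made the prior degrees of freedom infinite for 4 of the 5 members. Its p-values are not given, and the intervals printed instead were chosen after seeing the data. No promoter or protein sequences were used here.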

Additional observations from a re-analysis of the deposited data

How the results depend on the processing

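In the CO2 step, 4 members fell under each setting except where an array of normal CO2 was left out or under the filter on dim probe sets. Under that filter 5 fell, where 35.8% of all probe sets kept passed in either direction, against 14.6% in the main fit. All 5 log2 fold changes stayed negative in all settings. In the main fit 7 of the 17 other measured autophagy genes passed in the CO2 step, all lower, where 14.6% of all probe sets passed in either direction. Over the whole range 9 passed, 8 lower and RAPTOR2 higher, where 20.5% of all did. Fits with 1 array left out have 1 array in a group. In them calls of members ended in the CO2 step, over the whole range and for the difference between the steps. Calls of other autophagy genes ended in the CO2 step and over the whole range. Where calls ended, fewer of all probe sets passed too, so the losses are not particular to these genes. The count of member pairs ran from 3 to 7. For the difference between the steps the count of members was 1 in the main fit, where 1.88% of all probe sets passed in either direction. It was 2 with a pseudocount of 1 (2.85% of all) or with only probe sets with a group mean of at least 50 (11.8% of those). With a pseudocount of 32 (0.479% of all) or no mean-variance trend (0.0264%) it was 0. The median share of the CO2 step, 97.5%, moved by less than the spread between replicates, to between 89.8% and 109% without single arrays. Whether the replicate letters pair the samples was not settled: A minus B correlated with r = 0.307, 0.159 and 0.0153 between groups. The share of all probe sets that passed in the CO2 step was 17.4% with the replicate letter as a block and 14.6% without it. With the replicate block the counts of members were 4, 4 and 1 and that of the other genes 7 and 9 as without it, and 6 pairs had an interval without 0.

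Some small values changed sign; the cause was not tested. Under quantile normalization the light step of RAPTOR1 was 0.051, and the difference between the steps -0.017 for ATG4B and -0.071 for VPS38. With a common median VPS38 had -0.0044 in the CO2 step and -0.032 for the difference. With 1 array left out, the light step ran from -0.23 to 0.20 for ATG8E, -0.68 to 0.24 for ATG8H, -0.15 to 0.081 for APG8A, -0.076 to 0.17 for ATG8D, -0.087 to 0.39 for ATG3, -0.14 to 0.38 for ATG1B, -0.021 to 0.15 for ATG1T, -0.24 to 0.057 for ATG101, -0.71 to 0.037 for ATG14A, -0.056 to 0.16 for VPS38 and -0.054 to 0.052 for RAPTOR1. The CO2 step ran from -0.15 to 0.37 for ATG1C and -0.039 to 0.18 for VPS38, and the whole range of ATG1C from -0.43 to 0.094. The difference between the steps ran from -0.20 to 0.23 for VPS38, -0.17 to 0.39 for ATG4B, -1.19 to 0.30 for ATG14A and -0.18 to 0.030 for RAPTOR1. The planned search for promoter motifs was not run.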

Other observations

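ATG1C and ATG14A each had a second, dimmer probe set that did not enter the counts. That of ATG1C had a CO2 step of -0.34 ± 0.26 (limma adjusted p = 0.452, n = 2 per group), where the brighter one had 0.11 ± 0.21. That of ATG14A read 10.8 on both arrays of darkness and 16.6 and 18.0 at low CO2 in light, a light step of 0.44 ± 0.20 (adjusted p = 0.345), where the brighter one had -0.34 ± 0.29. None of these steps passed the threshold, and the direction for ATG1C in the CO2 step and for ATG14A in the light step and over the whole range (-1.12 in the brighter one, 0.06 in the dimmer) depends on the probe set.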
